A study of Mus musculus with 4 samples.

Results

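The 10 melanocyte pigment genes Dct, Tyrp1, Tyr, Pmel, Mlana, Slc45a2, Slc24a5, Trpm1, Mitf and Sox10 were followed through single-cell libraries of B16-F10 tumours, a transplantable mouse melanoma line that still makes pigment. All 10 were found by gene symbol among the 27998 genes of the deposited table. They were chosen as a pathway and not by a rule on their values, although earlier results of these data were known. The libraries were made from C57BL/6 mice that carried either Adar1 null or control B16-F10 tumours, the control being called wild type in the series text. Adar1 is an enzyme that edits double-stranded RNA, and its loss was in the implanted tumour cells, not in the host. In both groups tumour cells were implanted with matrigel, tumours were taken on day 14 and digested for 10 min at 37 degrees Celsius, and leukocytes were concentrated by density and then selected with magnetic beads against CD45. The 2 Adar1-null libraries are called S1 and S2 and the 2 control libraries S3 and S4, as their barcodes name them. The series text counts 2 tumours per group, but no label ties a library to an animal, and how Adar1 was removed or whether the line was 1 clone is not given in the sources used here, so p-values measure the spread between libraries only.

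Pigment is made in melanosomes, lysosome-related organelles of melanocytes. Tyr starts melanin synthesis by oxidising tyrosine, Dct and Tyrp1 act on later intermediates of eumelanin, Pmel forms the fibrils on which melanin is laid down, and Mlana is a melanosomal protein that binds Pmel. Slc45a2 and Slc24a5 are transporters that set melanosomal pH and cation content, and Trpm1 is a cation channel of melanocytes and retinal bipolar cells. Mitf is the transcription factor that switches these genes on through E-box motifs of the M-box type, and Sox10 is a neural crest factor that activates Mitf. Mitf is also made in cells outside the pigment lineage, macrophages and osteoclasts among them.

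RefSeq promoters (GRCm38.p6, the assembly also called mm10) were at hand for 6 of the 10 genes, with 9 start sites among them. They are shown as background, and no link of their motifs to the levels below was tested. Each line below gives the 250 bases before 1 start site, read 5′ to 3′ on the strand of the gene. Capitals mark the M-box core TCATGTG on either strand (CACATGA in reverse) and, in the Mitf promoter, the cAMP response element TGACGTCA.
Tyr, chr7:87493513-87493762, minus strand: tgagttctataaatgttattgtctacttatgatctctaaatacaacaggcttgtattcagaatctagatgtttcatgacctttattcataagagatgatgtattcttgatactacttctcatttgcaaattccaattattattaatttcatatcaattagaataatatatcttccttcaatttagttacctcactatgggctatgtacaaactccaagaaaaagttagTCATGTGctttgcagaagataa
Tyrp1, chr4:80833963-80834212, plus strand: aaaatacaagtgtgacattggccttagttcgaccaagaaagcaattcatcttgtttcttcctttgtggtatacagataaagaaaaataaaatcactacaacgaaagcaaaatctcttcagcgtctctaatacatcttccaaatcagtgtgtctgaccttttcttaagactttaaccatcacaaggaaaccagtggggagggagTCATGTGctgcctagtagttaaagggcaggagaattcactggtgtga
Dct, chr14:118052247-118052496, minus strand: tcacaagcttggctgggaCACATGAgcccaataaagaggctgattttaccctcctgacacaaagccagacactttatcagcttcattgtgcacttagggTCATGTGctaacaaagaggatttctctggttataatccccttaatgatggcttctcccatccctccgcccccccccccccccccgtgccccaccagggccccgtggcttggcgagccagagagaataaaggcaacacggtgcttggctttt
Slc24a5, chr2:125067877-125068126, plus strand: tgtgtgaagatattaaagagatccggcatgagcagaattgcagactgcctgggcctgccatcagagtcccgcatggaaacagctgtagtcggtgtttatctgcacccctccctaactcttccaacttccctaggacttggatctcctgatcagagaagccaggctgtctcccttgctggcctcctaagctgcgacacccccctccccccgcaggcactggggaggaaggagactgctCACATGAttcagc
Mitf, melanocyte start, chr6:97991533-97991782, plus strand: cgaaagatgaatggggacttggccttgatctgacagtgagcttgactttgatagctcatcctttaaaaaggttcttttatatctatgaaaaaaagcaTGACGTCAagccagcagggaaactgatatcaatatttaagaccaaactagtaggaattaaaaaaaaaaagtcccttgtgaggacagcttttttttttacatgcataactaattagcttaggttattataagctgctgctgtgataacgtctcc

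The M-box core stood in the window of 5 of these 6 genes, or of 5 of their 9 start sites. Its first base was at position -22 from the start in Tyr, at -47 in Tyrp1, at -151 in Dct (which had 2 matches), at -13 in Slc24a5, where it lay on the other strand, and at -142 in the first of the 2 starts of Trpm1. The same 7 letters were found in 1068 of 32851 RefSeq promoter windows of this length, or 3.25%. The start of Mitf from which the melanocyte form of the factor is made held no M-box core and had the cAMP response element at -153. That element was in 1.55% of all windows. The other starts of Mitf held neither the M-box core nor that element, and they and the starts of Trpm1 are not shown. The 3′ tags counted here do not separate the forms of Mitf. Pmel, Mlana, Slc45a2 and Sox10 are named only.

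The genes lie apart in the genome, and 2 of them overlap other genes that had counts. By GENCODE vM21 on GRCm38, Slc24a5 (chromosome 2, 125068124 to 125088677, plus strand) overlaps Myef2 on the opposite strand, and Pmel (chromosome 10, 128704195 to 128720238, plus strand) overlaps Cdk2 and Dgka on the opposite strand. Trpm1 (chromosome 7, 64153835 to 64269775, plus strand) carries Mir211 on its own strand, for which no count was used. Dct lies on chromosome 14 (118012790 to 118052244), Mitf on chromosome 6 (97807052 to 98021349) and Tyr on chromosome 7 (87424771 to 87493512). Tyrp1 is on chromosome 4 (80834123 to 80851719), Mlana on chromosome 19 (29697824 to 29708634), and Sox10 (79154908 to 79165240) and Slc45a2 (11000721 to 11029233) are on chromosome 15. Whether counting used strand is not given in the sources used here, so reads of overlapping genes may have been counted together.

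Of 8838 barcodes, 8559 cells were kept, from S1 to S4 1938, 1929, 1943 and 2749, and medians of 7588 to 8813 unique molecular identifiers (UMIs) per cell. Clusters were made without the pigment genes and the other pigment and lineage genes listed here, so the clusters do not rest on them. The names of the classes do in part, since Mlph, Ednrb and some other genes of these lists are among the melanoma markers, but none of the 10 is a marker. Melanoma-like cells numbered 360 and 289 in S1 and S2, against 266 and 320 in S3 and S4, macrophage-like cells 894 and 818 against 933 and 1248, and T cell-like cells 368 and 389 against 285 and 283. The 12 other melanoma markers summed to between 2365 and 2522 counts per 1000000 UMIs (CPM) in melanoma-like cells, 87.2 to 226 CPM in macrophage-like cells and 30.2 to 39.9 CPM in T cell-like cells. Ptprc, the gene of CD45, had a UMI in 9.63% to 13% of cells in the 3 melanoma-like clusters, although the beads selected for CD45. Adar, the targeted gene, was at 9.4 and 12.8 CPM in melanoma-like cells of S1 and S2, against 11.4 and 12.9 CPM in S3 and S4 (by -0.15 ± 0.16 on the log2 scale (SE), not called), and a 3′ tag count checks nothing about a deletion elsewhere in the gene. The unnamed cluster 1, led by Cd209f and Lyve1, took 3.72% and 1.35% of cells in S1 and S2, against 8.18% and 25.5% in S3 and S4, and 38 barcode sequences occurred in more than 1 library.

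Melanoma-like cells carried the pigment transcripts at almost the same level in Adar1-null and control tumours. The summed level of the 10 genes was 7838 and 7635 CPM in the Adar1-null libraries, against 7850 and 7255 CPM in the control libraries. None of the 10 was called in either direction by the quasi-likelihood test of edgeR at an adjusted p of 0.05 (Benjamini-Hochberg), where 0.193% of 11388 genes were called (22 genes). None was below an unadjusted p of 0.05, where 4.75% of all genes lay, and DESeq2 called 0. The median log2 change was 0.014 over the 10 genes and -0.0023 over all genes tested.

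**Figure D1:**
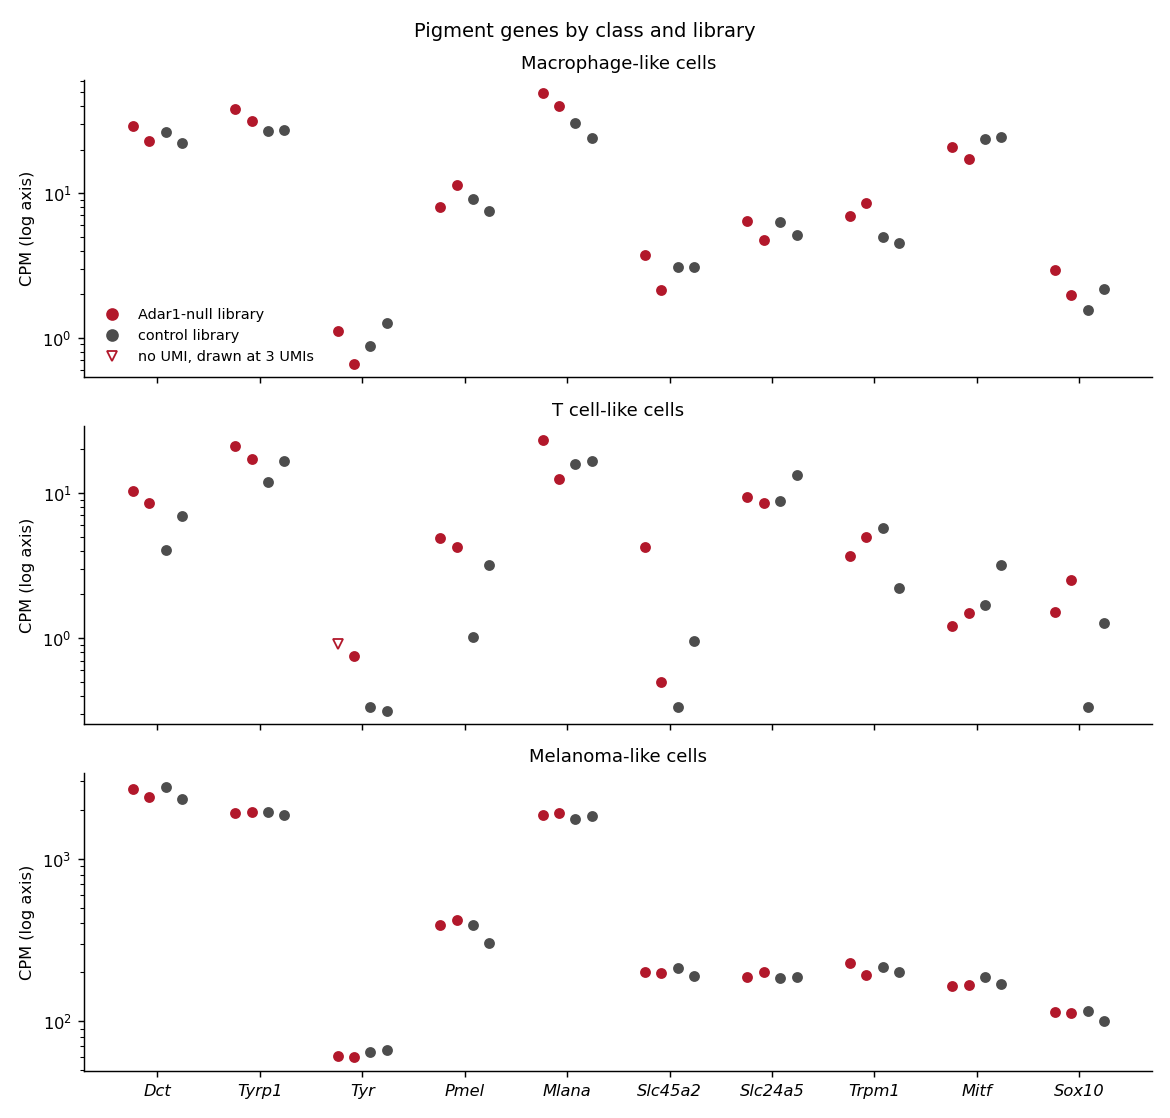
Level of each pigment gene in CPM (log axes, with a scale of its own in each panel) in macrophage-like, T cell-like and melanoma-like cells, 1 point per library, Adar1-null libraries in red and control libraries in grey. In melanoma-like cells the 4 points of each gene lie close together, for Dct between 2322 and 2779 CPM, while in the other classes points of the low genes spread widely.

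Among the melanin enzymes, Dct was the most abundant of the 10 genes. It stood at 2699 and 2410.1 CPM in S1 and S2, against 2779 and 2322 CPM in S3 and S4. Tyrp1 was at 1919.5 and 1949 CPM in the Adar1-null libraries, against 1936 and 1871 CPM in the control libraries. The groups thus overlapped for both genes. Tyr, the rate-limiting enzyme, was the least abundant, at 61.1 and 60.0 CPM in S1 and S2, against 64.4 and 66.2 CPM in S3 and S4. Both Adar1-null values of Tyr lay below both control values, but the log2 change of -0.12 ± 0.08 (SE) was not called (adjusted p = 0.999 by the edgeR test). Its 95% interval ran from a fold of 0.825 to 1.03. CPM of 3′ tags carry no length term, so these levels are of molecules per gene.

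Of the structural proteins, Mlana was at 1873 and 1918 CPM in S1 and S2, against 1762 and 1841 CPM in S3 and S4. Both Adar1-null libraries lay above both control libraries, by 0.07 ± 0.07 on the log2 scale. Pmel was at 389.5 and 423 CPM in the Adar1-null libraries, against 390.5 and 305 CPM in the control libraries, and S4 was the low one. Its log2 change was the largest of the 10, at 0.22 ± 0.12 (95% interval -0.07 to 0.51), and was not called (adjusted p = 0.999 by the edgeR test). Without S3 the estimate was 0.41 and was called (adjusted p = 0.000295 by the same test), and without S4 it was 0.05. With the largest melanoma-like cluster alone it was 0.11.

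The transporters and the channel lay between 184 and 228 CPM in every library. Slc45a2 was at 202 and 199 CPM in S1 and S2, against 214 and 191 CPM in S3 and S4, and Slc24a5 at 186 and 201 CPM, against 184 and 188 CPM. Trpm1 was at 228 and 194 CPM in the Adar1-null libraries, against 217 and 201 CPM in the control libraries. The groups overlapped for all 3. Of the regulators, Mitf was at 165 and 168 CPM in S1 and S2, against 187 and 169 CPM in S3 and S4 (by -0.10 ± 0.07 on the log2 scale), and Sox10 at 115 and 113 CPM, against 115 and 101 CPM (0.07 ± 0.07). The values of Mitf did not overlap between the groups, as for 3 of the 10 genes in all (Mlana, Mitf and Tyr) and for 31.9% of all genes tested.

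**Figure D2:**
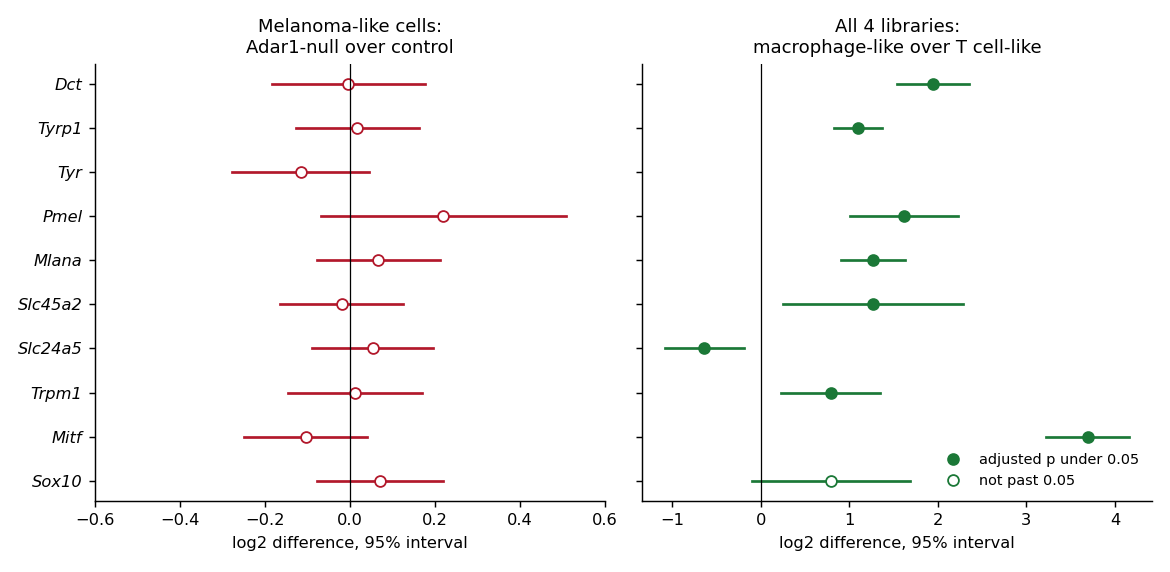
Log2 differences with 95% intervals from edgeR, on the left Adar1-null over control in melanoma-like cells and on the right macrophage-like over T cell-like cells within libraries; the 2 axes differ in scale, and Tyr was not tested on the right. All intervals on the left include 0, the widest being that of Pmel from -0.07 to 0.51, while on the right Mitf lies at 3.69 and Slc24a5 at -0.64.

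No gene of the wider pigment programme was called either. Of 25 other melanosome and pigment genes, all tested, 0 were called by edgeR or DESeq2, 3 (Mreg, Hps4 and Ap3d1) were below an unadjusted p of 0.05, and the median log2 change was -0.0030. The most abundant were Gpnmb, a glycoprotein related to Pmel, at 1191 and 1272 CPM in S1 and S2, against 1240.2 and 1177 CPM in S3 and S4, and Cd63, a tetraspanin that sorts Pmel, at 790.2 and 804 CPM, against 766 and 829 CPM. Gpr137b (591 ± 29.8 CPM over the 4 libraries, SD), Dtnbp1 (395 ± 28.2 CPM) and Rab38 (331 ± 9.81 CPM) followed. Of 12 lineage regulators, 9 were tested and 0 were called by either tool or lay below an unadjusted p of 0.05 (median 0.026). Pax3, which activates Mitf with Sox10, was at 255 and 274 CPM, against 258 and 247 CPM, followed by Zeb2 (154 ± 6.13 CPM), Tfap2a (65.3 ± 1.69 CPM), Tbx2 (28.5 ± 1.73 CPM) and Tfe3 (17.8 ± 0.725 CPM).

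Genes of dedifferentiated or neural-crest-like melanoma cells were low. Of 15 such genes, 8 passed the filter on low counts, and 0 of these were called by either tool or lay below an unadjusted p of 0.05 (median 0.065). Jun (40.1 ± 9.18 CPM), Cyr61 (34.0 ± 6.12 CPM), Nes (15.6 ± 0.841 CPM), Axl (8.47 ± 2.86 CPM) and Sox9 (7.52 ± 0.406 CPM) were the most abundant.

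Genes called in the same cells were not pigment genes. Higher ones included Mgll, Gm28727, Gm7808 and Phb, and reads of the predicted genes may be shared with near-identical copies. Mgll, a monoacylglycerol lipase, was at 29.9 and 28.2 CPM in S1 and S2, against 19.3 and 14.5 CPM in S3 and S4 (by 0.79 ± 0.12 on the log2 scale, adjusted p = 0.000572 by the edgeR test). The first 5 lower ones were Egr1, Ccl8, C1qb, Fcgrt and Cd209f, of which Egr1 is an immediate-early gene and Ccl8, C1qb and Cd209f are macrophage genes. Ccl8 was at 63.3 and 48.7 CPM, against 116 and 118 CPM (-1.06 ± 0.11). The 6 macrophage transcripts followed as free-RNA comparators summed in melanoma-like cells to 3.19% and 2.72% of their level in macrophage-like cells of S1 and S2, against 3.51% and 4.35% in S3 and S4, and the part of this in the calls was not tested.

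Within the melanoma-like class the levels differed by cluster. Cluster 0 held 997 of these cells, cluster 14, led by the mitotic genes Ccnb1 and Aurka, 130, and cluster 17, led by Tinagl1 and the hypoxia-induced carbonic anhydrase Car9, 108. These values are descriptions, since cells were divided by expression and not by label, although not by the pigment genes. In cluster 17 Pmel was at 1314 and 2915 CPM in S1 and S2, with 1508 and 708 CPM in S3 and S4, against 228 to 262 CPM in cluster 0. The fold within a library was thus 2.78 to 11.1 for Pmel. Trpm1 was at 429 to 659 CPM in cluster 17, against 171 to 215 CPM in cluster 0, and Tyr at 141 to 301 CPM, against 50.2 to 55.0 CPM. Slc45a2 (1.95 to 2.90-fold), Mitf (1.45 to 2.2-fold), Slc24a5 (1.22 to 2.46-fold) and Dct (1.15 to 1.82-fold) were also higher in cluster 17 in every library. Sox10, the activator of Mitf, was not, at 71.3 to 124 CPM in cluster 17, against 107 to 124 CPM in cluster 0.

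Mlana was higher in cluster 14 than in clusters 0 and 17. It was at 3270 to 4357 CPM in the 3 libraries with at least 20 cells (S1, S2 and S4), against 1642 to 1702 CPM in cluster 0. Slc24a5 was at 232 to 293 CPM in cluster 14, against 167 to 176 CPM in cluster 0, and Pmel at 384 to 554 CPM, against 228 to 262 CPM. Both were higher in cluster 17 as well. Trpm1 was lower, at 88.2 to 128 CPM, against 171 to 215 CPM, and Sox10 at 69.4 to 98.7 CPM, against 107 to 124 CPM. Tyr was lower too, at 27.3 to 47.0 CPM, against 50.2 to 55.0 CPM. Tyrp1 hardly moved, at 0.943 to 0.958 times its level in cluster 0 of the same library. In S1 the 63 cells of cluster 14 had a median of 7614 UMIs, against 32963 in S2 and 34910.0 in S4, and the part of depth in these levels was not tested.

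**Figure D3:**
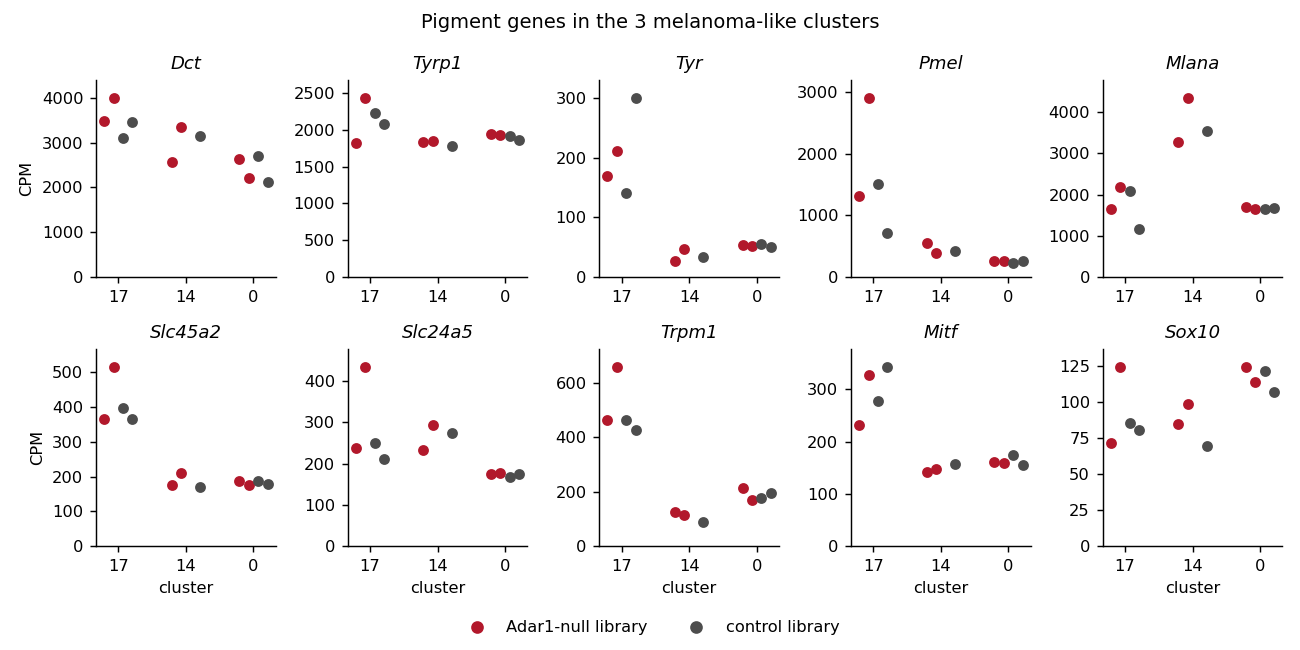
Level of each pigment gene in CPM in clusters 17, 14 and 0, 1 point per library with at least 20 cells, Adar1-null libraries in red and control libraries in grey, all axes from 0. Pmel, Tyr, Slc45a2, Trpm1, Mitf, Dct and Slc24a5 stand above cluster 0 in all 4 libraries in cluster 17. Mlana stands at 3270 to 4357 CPM in cluster 14.

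From cell to cell, Pmel varied most. Its median was 8 UMIs per melanoma-like cell, and the highest cell had 673. With every cell thinned to 3500 UMIs, its variance was 5.47 times its mean, against 2.77 for Mlana, 2.70 for Dct and 1.05 for Sox10, where counting error alone gives about 1. This ratio depends on the mean, which ran from 0.213 UMIs for Tyr to 8.78 for Dct after thinning. Genes of unlike level are thus not ranked by it in how much they vary. Without thinning, Tyr had no UMI in 29.7% of the 1235 cells and Trpm1 in 22.9%, while Mlana was missing from 0.405%. At 3500 UMIs these shares were 82.4%, 60.9% and 2.11%. Across the 1235 cells the strongest pairwise Pearson correlation of thinned levels was that of Dct with Tyrp1, at 0.386, and Sox10 was at -0.0071 with the sum of the other 9. These cells share libraries and clusters, and the low counts of Tyr, Mitf and Sox10 limit their correlations.

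Across 69 points of cluster by library, 7572 genes of at least 10 CPM in melanoma-like cells were compared with the pigment genes. The most alike were Slc2a5, Clstn3, Syt4, Sox6, Epha3, Alx1, Arfgef3 and Card14. Their Pearson correlation with the sum of the 10, on log2(CPM + 1), was 0.949 to 0.966, and clusters of 1 library share its free RNA. A gene high only in the melanoma-like clusters scores high on this measure, and co-regulation was not tested. Syt4, a synaptotagmin, was the most abundant, at 438 CPM in melanoma-like, 4.72 CPM in macrophage-like and 2.09 CPM in T cell-like cells. Of the 10 genes themselves, Dct (0.989) and Tyrp1 (0.988) had the highest correlation with the sum over these points, and Mitf (0.830) and Slc24a5 (0.873) the lowest. Each gene is itself in that sum. Dct and Tyrp1 made up 33.4% and 25.1% of it in melanoma-like cells, against 2.26% for Mitf and 2.49% for Slc24a5. The part of abundance in this order was not tested. Within melanoma-like cells, correlations with the sum were weak, with Gpnmb first at 0.323, followed by Ptgds (0.240), Cd63 (0.227), Calr (0.226), mt-Co1 (0.222), mt-Atp6 (0.220), mt-Co2 (0.218) and Hsp90b1 (0.208).

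The whole infiltrate had more pigment RNA in the Adar1-null libraries by estimate, without a call. The summed level came to 3566 and 3160 CPM in S1 and S2, against 2908 and 2650 CPM in S3 and S4. In these sums alone, more cells of a type and more RNA per cell cannot be told apart. Levels within melanoma-like cells are given above and their share of cells below. None of the 10 genes was called by edgeR, where 0% of 13465 genes were called (1237 had an unadjusted p under 0.05), and DESeq2 called none of the 10. Slc24a5, Pmel, Sox10 and Mlana were below an unadjusted p of 0.05, against 9.19% of all genes, and Pmel was at 178 and 176 CPM, against 146 and 114 CPM (log2 change 0.38 ± 0.12). The groups did not overlap for 7 of the 10 genes, against 49% of all genes.

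Melanoma-like cells made up 18.6% and 15.0% of cells in S1 and S2, against 13.7% and 11.6% in S3 and S4. The means were 16.8 ± 2.54% in Adar1-null and 12.7 ± 1.45% in control libraries (SD, n = 2 each; exact two-sided permutation p = 0.333, the smallest that 2 against 2 can give). Melanoma-like cells held 97.8% and 97.9% of all UMIs of the 10 genes in S1 and S2, against 96.6% and 96.6% in S3 and S4.

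Outside the melanoma-like cells the pigment transcripts were found at low levels in every class, and more in macrophages than in T cells. Macrophage-like cells held 167 and 141 CPM in S1 and S2, with 133 and 122 CPM in S3 and S4, or 1.84 ± 0.21% of the level in melanoma-like cells of the same library (SD, n = 4). T cell-like cells held 79.4 and 61.0 CPM in S1 and S2, with 49.9 and 64.3 CPM in S3 and S4, or 0.833 ± 0.159%. The values of the 2 classes did not overlap, and the macrophage level was 1.89 to 2.67 times the T cell level. For scale, 4 T cell transcripts (Cd3d, Cd3e, Cd3g and Cd8a) stood in macrophage-like cells at 1.02% and 0.871% of their T cell level in S1 and S2, against 0.435% and 0.350% in S3 and S4. The 6 macrophage transcripts stood in T cell-like cells at 2.85% to 4.67% of their macrophage level. Whether the low counts are free RNA, taken up RNA, doublets or the cells' own transcripts was not tested.

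Tested within libraries, 8 of the 9 genes that passed the filter differed between macrophage-like and T cell-like cells, 7 higher and 1 lower in macrophages. The background is high here, with 70.6% of 10992 genes called, 35.9% higher and 34.6% lower, and these sums hold between 1 and 353 UMIs per gene and library. The median log2 difference was 1.27 over the 9 genes and -0.0039 over all genes tested.

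Mitf stood far above the rest. It was at 21.0 and 17.1 CPM in macrophage-like cells of S1 and S2, with 23.5 and 24.6 CPM in S3 and S4, against 1.22 and 1.50 CPM in T cell-like cells of S1 and S2, with 1.68 and 3.17 CPM in S3 and S4. The log2 difference was 3.69 ± 0.21 (adjusted p = 3.17e-08 by the edgeR test). Macrophage-like cells thus had 12.5 ± 1.77% of the Mitf level of melanoma-like cells, against 0.987 ± 0.0665% for Dct and 1.61 ± 0.266% for Tyrp1. With cells thinned to 3500 UMIs, Mitf had a UMI in 6.23% to 8.25% of macrophage-like cells and in 0% to 1.06% of T cell-like cells, whose median depths were 6144.5 to 7830.0 and 7502 to 9666 UMIs. At equal depth the share was thus higher in macrophage-like than in T cell-like cells, and the ranges did not overlap. Without Mitf, the other 9 genes summed to 1.59 ± 0.24% of the melanoma level in macrophage-like and 0.827 ± 0.162% in T cell-like cells.

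Slc24a5 went the other way. It was at 6.39 and 4.77 CPM in macrophage-like cells of S1 and S2, with 6.28 and 5.13 CPM in S3 and S4, against 9.43 and 8.50 CPM in T cell-like cells of S1 and S2, with 8.76 and 13.3 CPM in S3 and S4. The T cell values were higher in 4 of 4 libraries, and the log2 difference was -0.64 ± 0.20 (adjusted p = 0.0140 by the edgeR test). The call was lost without S4 (-0.45, adjusted p = 0.0778) and by DESeq2 (adjusted p = 0.0892). T cell-like cells had 5.28 ± 1.25% of the Slc24a5 level of melanoma-like cells, the highest of the 10 genes in that class, against 2.98 ± 0.523% in macrophage-like cells. Myef2, which overlaps Slc24a5 on the other strand, was at 17.2 CPM in T cell-like, 7.29 CPM in macrophage-like and 78.4 CPM in melanoma-like cells over the 4 libraries, and whether its reads were counted for Slc24a5 was not tested.

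**Figure D4:**
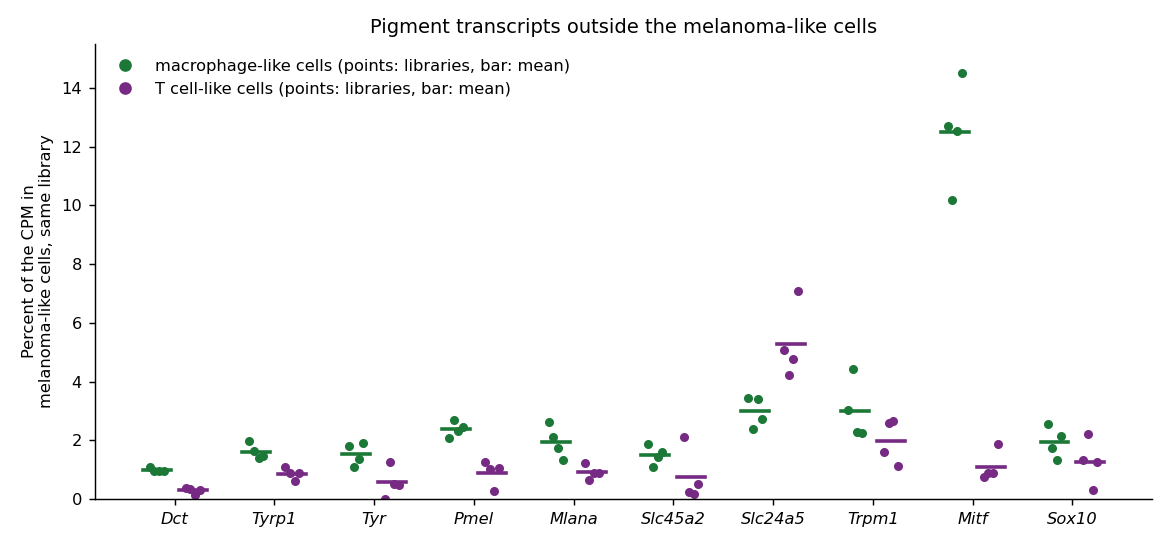
Level of each pigment gene in macrophage-like (green, left of each pair) and T cell-like cells (purple, right), as a percent of its CPM in melanoma-like cells of the same library; points are the 4 libraries and bars their means. Mitf in macrophage-like cells lies at 10.2% to 14.5%, and Slc24a5 is the gene with the highest T cell values, at 4.22% to 7.09%.

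The other 6 called genes were higher in macrophage-like cells. Dct was at 29.3 and 23.0 CPM in macrophage-like cells of S1 and S2, with 26.6 and 22.0 CPM in S3 and S4, against 10.3 and 8.50 CPM in T cell-like cells of S1 and S2, with 4.04 and 6.97 CPM in S3 and S4 (log2 difference 1.94 ± 0.19). Pmel (1.62 ± 0.28), Mlana (1.27 ± 0.16) and Tyrp1 (1.10 ± 0.12) were called as well, and these 3 and Dct and Mitf were called also with any 1 library left out. Slc45a2 (1.27 ± 0.46) and Trpm1 (0.79 ± 0.25) were called on few UMIs, 20 and 56 in all T cell-like cells. Slc45a2 lost its call without S2, S3 or S4, and Trpm1 without S1, S2 or S4. Sox10, at 20 UMIs in T cell-like and 71 in macrophage-like cells, was at 0.79 ± 0.41 and was not called (adjusted p = 0.102 by the edgeR test), but was called without S2 (adjusted p = 0.0355). Tyr was not tested, with 34 UMIs in macrophage-like and 5 in T cell-like cells, and 0 of 368 T cell-like cells of S1 had one, which limits its level there to 0.913 CPM (3 UMIs, counting error only).

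Marker gates in place of clusters changed this comparison. With cells taken by 1 gate of markers, 3 of 10 genes were called (Mitf at 2.45, Pmel at 0.92 and Slc24a5 at -0.52), and the median was 0.58. Of all 11329 genes tested, 7594 were called with these gates. Of the 1321 cells in the T cell gate, 6 lay in melanoma-like clusters and held 73.0% of the pigment UMIs of that gate. In the macrophage gate 24 of 4235 cells lay in melanoma-like clusters and held 54.5%. Cells that passed a gate and lay in the cluster class of the same name were then used, a choice made after seeing this. Among them 7 of 9 genes were called, with 7613 of all 10774 genes, and the median was 1.26 over the 9.

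The mixture of pigment transcripts differed between the classes. Dct made up 18% of pigment UMIs in macrophage-like cells and 11.5% in T cell-like cells, against 33.4% in melanoma-like cells (means of 4 libraries). Mitf made up 15.6% and 3.07%, against 2.26%, and Slc24a5 4.04% and 16%, against 2.49%. Mlana was close in all 3 classes, at 25.2% and 26.7%, against 24.2%. Few cells held many of these UMIs. The 9 macrophage-like cells of S1 with the most held 20.1% of the class's pigment UMIs, the highest with 89, while in S4 the 12 such cells held 9.46%. The median macrophage-like cell had 1 pigment UMI and the median T cell-like cell 0.

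By cluster, the order below the melanoma-like cells began with cluster 1, which was left unnamed. In it 12 of the 14 macrophage markers were found in at least 10% of cells, but Ednrb, a melanoma marker, was among its leading genes, and this kept its 958 cells, 701 of them in S4, out of the macrophage-like class. It was at 377 and 383 CPM in S1 and S2, against 422 and 245 CPM in S3 and S4, and did not overlap the next cluster. Its leading genes were Cd209f, Cd209g, Ednrb, Lyve1 and Cbr2, most of them of tissue-resident macrophages. Clusters 6, 3, 7 and 5 of the macrophage-like class followed at means of 158, 157, 149.8 and 148 CPM, and each overlapped the next. The Chil3 and Il1b cluster 2 was the lowest of that class at 99.5 ± 24.7 CPM. T cell-like clusters lay at 59.1 to 74.7 CPM and the natural killer cell-like cluster was last at 56.4 ± 14.3 CPM, each overlapping its neighbour in the order. Mitf alone was at 33.2 CPM in cluster 6, led by Mmp12, and at 32.3 CPM in cluster 1, and was at 0.799 CPM in the Ccr7 and Fscn1 dendritic cell-like cluster 16.

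**Figure D5:**
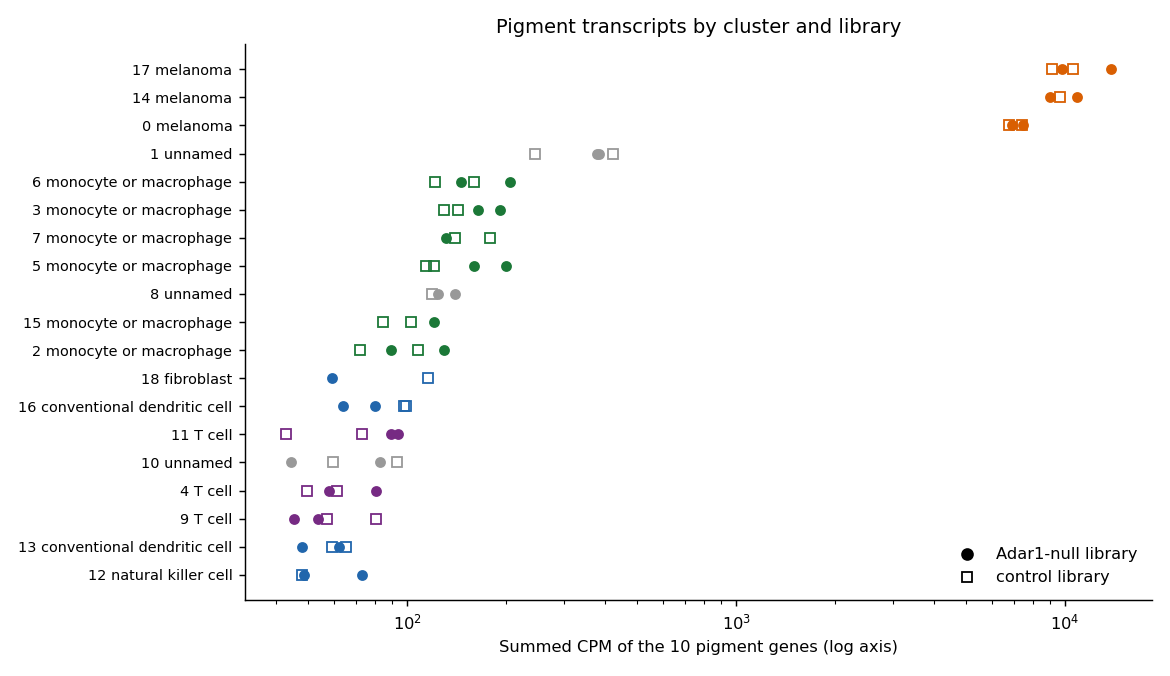
Summed CPM of the 10 pigment genes (log axis) in each cluster with at least 20 cells in 2 or more libraries, ordered by the mean; filled circles are Adar1-null and open squares control libraries, and colours mark melanoma (orange), macrophage (green), T cell (purple), other (blue) and unnamed (grey) clusters. The 3 melanoma-like clusters lie between 6779.8 and 13824 CPM and the others between 42.9 and 422 CPM.

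Within macrophage-like cells, 0 of the 9 genes tested were called between Adar1-null and control libraries by edgeR or DESeq2, where 0% of 10655 genes were called by edgeR and 1 gene by DESeq2. Mlana had the largest estimate, at 49.0 and 40.3 CPM in S1 and S2, against 30.5 and 24.2 CPM in S3 and S4 (by 0.70 ± 0.18 on the log2 scale, unadjusted p = 0.0074, adjusted p = 0.988 by the edgeR test). Trpm1 was at 6.95 and 8.55 CPM, against 4.96 and 4.50 CPM (0.70 ± 0.25), and these 2 genes were below an unadjusted p of 0.05, as were 3.18% of all genes. Mitf ran the other way by estimate, at 21.0 and 17.1 CPM, against 23.5 and 24.6 CPM (-0.35 ± 0.18). The libraries filled the class from different clusters. Cluster 7 held 40 and 1 cells in S1 and S2, against 40 and 283 in S3 and S4, cluster 6 held 176 and 74, against 150 and 379, and cluster 2 held 220 and 342, against 209 and 176. Mitf averaged 31.2 CPM in cluster 7, 33.2 CPM in cluster 6 and 13.2 CPM in cluster 2, and the part of this in its difference was not tested. The groups did not overlap for 4 of the 9 genes, against 31.1% of all genes, and the median was 0.22 over the 9 and -0.0097 over all genes. The direction of this median turned with marker gates (-0.38, 3 of 10 genes positive), with the unnamed clusters 1 and 8 added to the class (-0.085, 4 of 10 positive) and without S1 (-0.0082, 5 of 10 positive). The share of melanoma-like cells was also higher in S1 and S2, and its part in these values was not tested.

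With cells thinned to 3500 UMIs, 37.4% and 32.6% of macrophage-like cells in S1 and S2 had a pigment UMI, against 31.3% and 30.4% in S3 and S4 (exact two-sided permutation p = 0.333). Without thinning the order turned, at 59.7% and 50.9%, against 59.4% and 57.2%, a difference of -3.00 percentage points, in cells with median depths of 6758 and 6144.5 UMIs, against 7830.0 and 7374.5. The ratio of the summed level in macrophage-like to that in melanoma-like cells was 0.0213 and 0.0185 in the Adar1-null libraries, against 0.0170 and 0.0168 in the control libraries (exact two-sided permutation p = 0.333). The difference between the groups was 0.0030 and turned to -0.0079 with marker gates and to -0.00073 with clusters 1 and 8 added.

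In T cell-like cells 6 of the 10 genes could be tested and 0 were called by edgeR or DESeq2, where 0.0318% of 9446 genes were called by edgeR (3 genes), and none of the 6 was below an unadjusted p of 0.05, against 7.18% of all genes. Pmel was at 4.87 and 4.25 CPM in S1 and S2, against 1.01 and 3.17 CPM in S3 and S4 (by 1.04 ± 0.53 on the log2 scale), and Dct at 10.3 and 8.50 CPM, against 4.04 and 6.97 CPM (0.71 ± 0.34). The median was 0.23 over the 6 genes and 0.00034 over all genes. With marker gates, whose T cells include the 6 of melanoma-like clusters given above, it turned to -1.68, with 0 of 9 genes positive. Of these 9, 7 were below an unadjusted p of 0.05 and 0 were called. Of all 9629 genes tested with these gates, 628 were below it and 4 were called. Thinned to 3500 UMIs, 20.4% and 15.9% of T cell-like cells in S1 and S2 had a pigment UMI, against 13.0% and 20.1% in S3 and S4 (exact two-sided permutation p = 0.667, where 0.333 is the smallest possible). The groups overlapped.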

How the data were processed

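The authors deposited raw UMI counts, genes by cells, in a single matrix that holds the 4 libraries. The tools named in the submitters' processing notes are Cell Ranger and Seurat 2.2.0, with mm10 as the build, and per the labels' protocols the assay was 10x single-cell 3' v2. Neither the aligner settings nor the annotation, the strand setting or any filter applied earlier is given in those notes. The lowest UMI total of a barcode was 3961, so shallow cells are not in the matrix. The group of a library was taken from its name in the barcodes.

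Barcodes under 500 genes or over 10% mitochondrial UMIs were removed (161), and 118 with a Scrublet score over 0.1 were removed as doublets. Clusters were made with scanpy 1.11.5 and leidenalg 0.10.2 (2000 variable genes, 30 components, 20 neighbours, resolution 1), leaving out the 10 genes, the listed pigment, lineage and dedifferentiation genes, and ribosomal, mitochondrial, antigen-receptor, MHC, interferon, cell cycle and stress genes. A cluster took the class with the largest share of its markers detected in at least 25% of its cells, with at least 3 markers in at least 10% of cells. It stayed unnamed if another class led its 10 top genes. This naming rule differs from the one first written and was set after the clusters were seen. Trac, Trbc1 and Trbc2, among the T cell markers, were not used here.

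UMIs were summed per library and class and tested with edgeR 4.0.16 (TMM, quasi-likelihood, default filter on low counts, adjusted over all genes tested), with the library as a block between classes. DESeq2 1.42.0 was an alternative, as were other scaling, no filter, doublets kept, marker gates, equal cells and each library left out. Genes named beyond the 10 are the called and the 5 most abundant of each list, the 8 most alike, and the first 5 called in each direction, of which 1 higher gene is not reported here. The 10 genes, the lists and the tests were chosen with earlier results of these data known. Errors of log2 changes are standard errors. On simulated counts for the melanoma-like comparison (11309 genes), 97% of 2-fold and 100% of 4-fold changes were recovered with 5 false calls. The changes were placed only in well-counted genes, and every gene was drawn with the same spread between libraries. Recovery for low genes or genes of larger spread was thus not tested. Class totals were 9033527 to 11527775 UMIs per library for melanoma-like, 6080845 to 11118725 for macrophage-like and 2968488 to 4002150 for T cell-like cells. Intervals of log2 changes and folds carry the spread between libraries, while the limit given for Tyr covers counting error only.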

Additional observations from a re-analysis of the deposited data

How the results depend on the processing

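No paired analysis was possible because the library names in the barcodes carry no replicate number. In melanoma-like cells no pigment gene was called under any alternative but 1, since leaving out 1 library gave 0 to 1 calls. Estimates near 0 changed sign there, for which the cause was not tested. Dct was at 0.0017 with UMI totals as the scale and at 0.016 with equal cells, and -0.13 to 0.13 with 1 library left out. Slc45a2 was at 0.028 with equal cells and -0.10 to 0.067 with 1 library left out, Sox10 at -0.025 to 0.17, Trpm1 at -0.12 to 0.13 and Tyrp1 at -0.011 to 0.045. Genes called there numbered 8 by DESeq2, 5 with doublets kept, 9 with equal cells, 5 in the largest cluster alone (an alternative chosen after seeing the data), 13 with marker gates, 95 without a filter and 50 to 140 with 1 library left out. In the whole infiltrate they numbered 88 by DESeq2, 1 without a filter and 0 to 118 with 1 library left out. In macrophage-like cells they numbered 1 by DESeq2, 301 without a filter, 1 of them a pigment gene, and 0 to 36 with 1 library left out. In T cell-like cells they numbered 22 by DESeq2, 7 with UMI totals as the scale, 11 with equal cells, 168 without a filter and 14 to 165 with 1 library left out. Between macrophage-like and T cell-like cells, pigment genes called numbered 3 with marker gates and 5 to 7 with 1 library left out. Of all genes, 7594 and 6955 to 7337 were called there. In that comparison 98 of the alternative estimates of single genes kept their side of the threshold, 18 lost their call, 1 gained one and none changed sign. With UMI totals as the scale the median of all genes there moved to -0.20, beside 1.07 for the pigment genes, and with DESeq2 to -0.11, beside 1.47. The Adar1-null less control difference in the share of macrophage-like cells with a pigment UMI was -3.00 percentage points without thinning. That of T cell-like cells was -0.878 without thinning, -0.243 at 2000 UMIs and -1.98 to 5.18 with 1 library left out. The median over the pigment genes between Adar1-null and control libraries turned in macrophage-like cells with marker gates, with clusters 1 and 8 added and without S1, and in T cell-like cells with marker gates, and the cause was not tested. The difference in the macrophage to melanoma ratio was -0.0079 with marker gates and -0.00073 with the unnamed clusters 1 and 8 added to the macrophages, which was chosen after seeing the data. Depth limited Tyr, Sox10 and Slc45a2 in T cell-like cells, at 5 to 20 UMIs each.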
